A study of Homo sapiens with 48 samples.

Results

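A set of 10 genes that report on signalling by bone morphogenetic proteins (BMPs) and transforming growth factor beta (TGF-beta) was followed through 3 uveal melanoma cell lines treated with a BAF inhibitor, and through 1 of the lines treated with a protein kinase C inhibitor. The 10 genes, of 58870 in the count files, were BMP4, BAMBI, SMAD6, SMAD7, SKIL, ID1, ID2, ID3, ID4 and ATOH8. They were chosen by measured values of these same samples: BAMBI and ATOH8 were selected on their opposite directions between lines after 24 h of FHT-1015, and the others as responders of the same pathways with earlier results known. Values of the 24 h FHT-1015 comparisons are therefore given for the 10 genes as a description, with no p-value, and the counts of those that passed the threshold there are printed only for completeness. The study sequenced polyadenylated RNA from the established uveal melanoma lines 92-1, MEL202 and MP41, all with the genotype label WT, in 16 groups of 3 biological replicates. FHT-1015 inhibits SMARCA4 and SMARCA2, the ATPases of BAF chromatin remodelling complexes, and each line received it or the solvent DMSO for 4 h or 24 h. Line 92-1 was also given IDE196, an inhibitor of protein kinase C (PKC), for 4 h or 24 h, with a DMSO set of its own. The doses are not given in the sources used here, and each line is the culture of a single tumour. The title of the series places the data in the question of BAF inhibition as a treatment for cancers that depend on transcription factors.

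BMP and TGF-beta ligands bind pairs of receptor kinases at the cell surface, which phosphorylate receptor SMAD proteins. SMAD1, SMAD5 and SMAD9 carry the BMP signal and SMAD2 and SMAD3 the TGF-beta signal, and each joins SMAD4 to bind DNA beside other transcription factors. Among the genes such complexes induce are the ID genes and a set of inhibitors, BAMBI, SMAD6, SMAD7 and SKIL, that damp the same pathways. BMP signalling takes part in the specification of the neural crest, from which melanocytes arise, and ID proteins hold back the differentiation factors of many lineages.

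Each library held between 11394088 and 32317711 reads in genes, and all 10 genes passed the low-count filter in each of the 4 experiments (a line with a drug and its own DMSO samples at both times, 12 libraries). The number of genes with a read was 17592 in a single library, MEL202 FHT-1015 4 h replicate 2, and at least 20023 in the other 47 libraries. The replicates of MEL202 at 4 h and of MP41 with DMSO at 24 h differed most from each other, by chi-square per degree of freedom over genes. All 7 melanocyte markers on the list (MITF, SOX10, PMEL, MLANA, TYR, TYRP1 and DCT) had reads in every group. At 24 h of FHT-1015 the 7 markers were all called lower in each line, and their summed level was 4854 to 5320.1 CPM (depth-normalised counts) against 18994 to 23059.6 with DMSO in 92-1, 2748 to 3187 against 7880.1 to 9597 in MEL202, and 5369 to 5934 against 11635 to 12629 in MP41. At 4 h of FHT-1015 in 92-1, 4 of the 7 were called lower and the sum was 15651 to 17835 against 20235 to 21397, while the sums of the groups overlapped in the other 4 h comparisons. With IDE196 at 24 h the sum was 18525 to 20885 against 16799 to 19435. Summed fibroblast markers stayed at or below 43.8 CPM, endothelial markers at or below 4.30 and leukocyte markers at or below 4.52. At 4 h of FHT-1015 in MEL202 the fibroblast sum was 7.90 to 17.2 CPM against 6.57 to 7.25, without overlap. It was 32.2 to 41.3 CPM against 6.51 to 8.18 in MEL202 at 24 h and 10.9 to 12.3 against 3.29 to 3.93 in 92-1, and with IDE196 at 24 h 12.1 to 21.2 against 6.99 to 10.8. These sums do not stand for the whole list. Of the fibroblast markers tested in MEL202, 0 of 4 were called at 4 h and 1 of 4, higher, at 24 h. At 24 h in 92-1, FHT-1015 gave 1 higher and 1 lower of 2, and IDE196 1 higher of 3. The part of these shifts in the results below was not tested. In bulk RNA, fewer cells of a kind and less RNA per cell cannot be told apart.

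The sequence just before the start of BAMBI, ATOH8 and ID1 is shown because BAMBI and ATOH8 carry the contrast between the lines, because ID1 is a widely used BMP target gene, and because SMAD complexes are known to read short elements in such promoters. The RefSeq windows (GRCh38.p14) hold 250 bases before a gene's start, and only the stretch without annotated exon is printed, 5′ to 3′ on the gene's strand. Capitals mark GGCGCC and GGAGCC, the GC-rich elements known for SMAD1 and SMAD5, and CAGAC, the SMAD3 and SMAD4 box, found on either strand. The stretches lie at chr10:28677271-28677341 for BAMBI, chr2:85753741-85753893 for ATOH8 and chr20:31605039-31605282 for ID1, all on the plus strand.
BAMBI: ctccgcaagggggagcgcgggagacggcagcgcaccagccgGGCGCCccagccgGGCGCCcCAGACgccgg
ATOH8: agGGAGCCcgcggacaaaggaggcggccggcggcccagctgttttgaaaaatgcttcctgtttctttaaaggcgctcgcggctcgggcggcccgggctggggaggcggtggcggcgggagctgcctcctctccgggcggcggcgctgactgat
ID1: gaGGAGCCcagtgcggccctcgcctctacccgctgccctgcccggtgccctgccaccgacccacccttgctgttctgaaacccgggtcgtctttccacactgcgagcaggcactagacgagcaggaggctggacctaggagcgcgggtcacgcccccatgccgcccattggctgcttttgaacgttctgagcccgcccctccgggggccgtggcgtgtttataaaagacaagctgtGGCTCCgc
In these stretches BAMBI had 2 GGCGCC and 1 CAGAC, ATOH8 had 1 GGAGCC and ID1 had 2 GGAGCC. Over the whole windows BAMBI had 3 copies of GGCGCC, 4 of the other GC-rich element and 2 of the SMAD3 and SMAD4 box, at a GC content of 81.2%, beside 64.4% for ATOH8, 66.0% for ID1 and a median of 58.0% over all windows. All 10 genes matched a window. The 10 genes had 14 windows, of which 3 held GGCGCC, 9 GGAGCC, 8 CAGAC and 1 the E-box CACGTG. Among all 35116 windows, 16.4% held GGCGCC, 30.6% GGAGCC, 38.0% CAGAC and 6.3% CACGTG. The matches are letters in a window and were not set against binding data. The ATOH8 stretch lies inside the longer gene model of GENCODE release 29.

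Changes are given as log2 fold change ± standard error, on 3 replicates a group. A gene was called higher or lower when edgeR's quasi-likelihood test gave a Benjamini-Hochberg adjusted p under 0.05 over all genes tested in the comparison. In 92-1 at 4 h of FHT-1015, 7 of the 10 genes were called, 5 higher and 2 lower, where 29.5% of all genes were called (12.9% higher, 16.7% lower). In MEL202 at 4 h none of the 10 was called by edgeR, where 0.679% of all genes were (0.157% higher, 0.522% lower). In that comparison 2 of the 10 had an unadjusted p under 0.05, beside 1365 of all 15913 genes tested. DESeq2 and limma-voom each called 1 of the 10, beside 375 and 115 of all genes. In MP41 at 4 h 3 of the 10 were called, 2 higher and 1 lower, where 0.225% of all genes were (0.0708% higher, 0.154% lower). IDE196 at 4 h gave 5 higher and 2 lower, against 16.2% of all genes (6.89% higher, 9.3% lower), and at 24 h 4 higher and 2 lower, against 58.1% (28.7% higher, 29.4% lower). The share called among the 10 at 24 h of IDE196 was thus close to that of all genes. For the comparisons that chose the genes, 9 of 10 passed in 92-1 at 24 h (7 higher, 2 lower, beside 60.6% of all genes, 29.2% higher and 31.4% lower), 6 of 10 in MEL202 (all higher, beside 18.8%, 8.69% higher and 10.1% lower) and 6 of 10 in MP41 (5 higher, 1 lower, beside 36.1%, 17.4% higher and 18.7% lower). Nothing is read from these 3 counts.

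**Figure D1:**
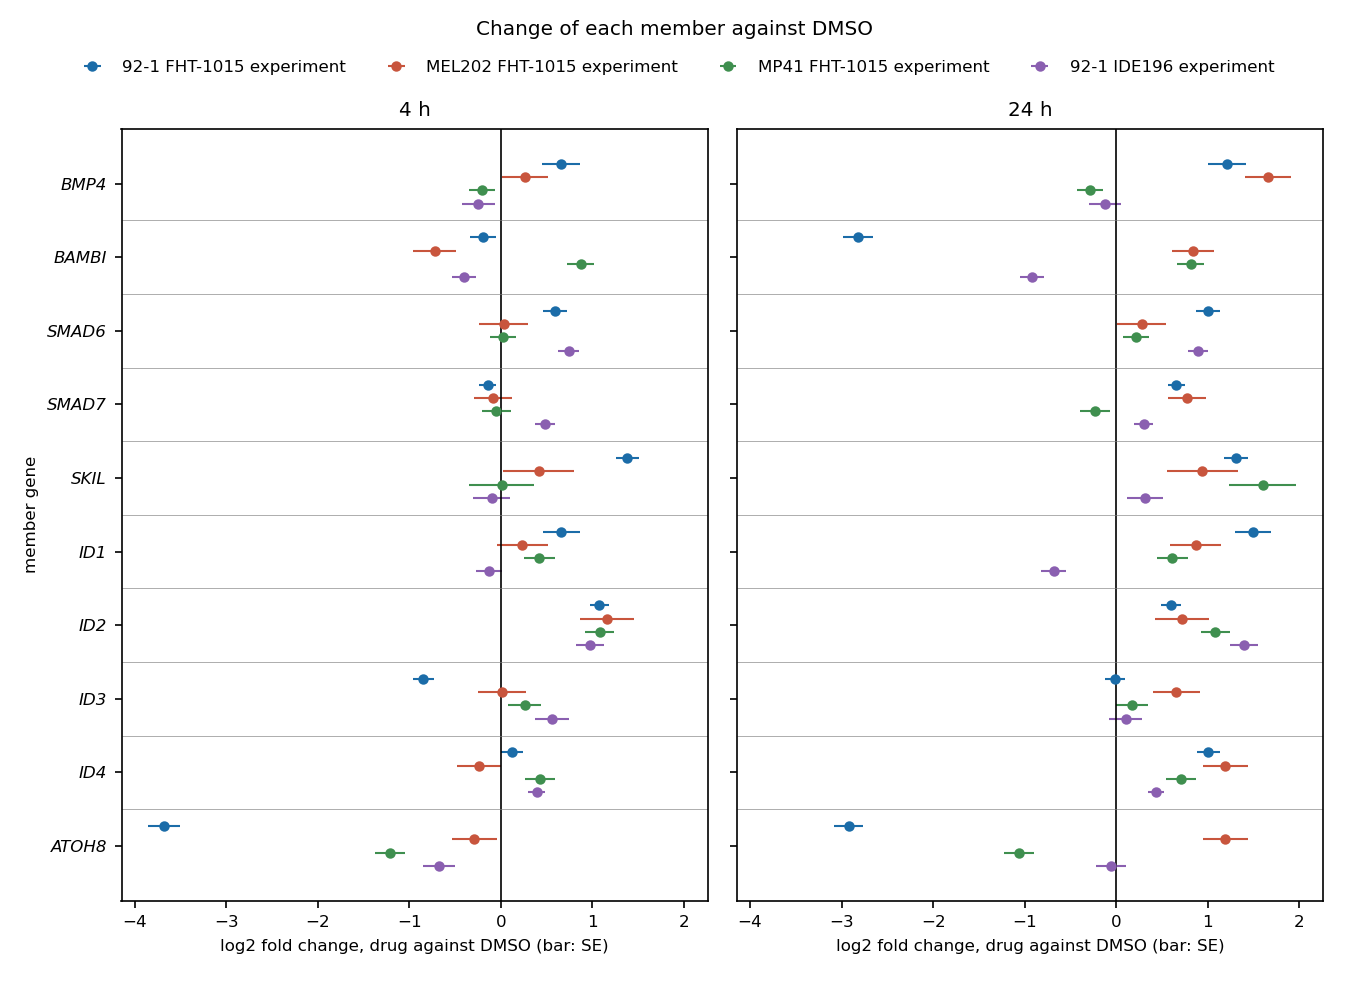
Log2 fold change of each of the 10 genes against its own DMSO at 4 h (left) and 24 h (right), as a point with its standard error as a bar, coloured by experiment. BAMBI and ATOH8 at 24 h of FHT-1015 lie on both sides of 0, with BAMBI at -2.82 in 92-1 and 0.84 in MEL202, and ID2 lies right of 0 in all 8 comparisons.

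BMP4 (ENSG00000125378.16, chr14:53949736-53958761, minus strand, positions here and below from GENCODE release 29 on GRCh38) encodes a secreted BMP ligand. With DMSO at 4 h it stood at 7.10, 8.22 and 11.01 CPM in the replicates of 92-1, and with FHT-1015 at 9.89, 13.3 and 18.6. The log2 fold change of 0.66 ± 0.21 was called (adjusted p = 0.0269), although the lowest treated sample lay within the DMSO range. The call was lost without DMSO replicate 1 or 2 or FHT-1015 replicate 2 or 3 of the 4 h groups, with an adjusted p of up to 0.143 and a log2 fold change for BMP4 of 0.41 without FHT-1015 replicate 3, and in a fit of the compared samples alone (0.0505). At 24 h the DMSO samples of 92-1 gave 7.21, 9.87 and 9.49 CPM and the FHT-1015 samples 18.5, 21.7 and 21.1. In MEL202 at 24 h the values were 7.29, 4.67 and 6.95 with DMSO and 16.3, 22.2 and 21.4 with FHT-1015. Every treated sample of both lines was above every DMSO sample, with log2 fold changes of 1.21 ± 0.21 and 1.66 ± 0.25. MP41, where BMP4 was highest, gave 57.4, 62.4 and 51.9 CPM with DMSO and 48.9, 43.4 and 48.8 with FHT-1015, and there every treated sample was below every DMSO sample (log2 fold change -0.28 ± 0.14). BMP4 was not called at 4 h in MEL202 (0.26 ± 0.25, adjusted p = 0.89) or MP41 (-0.20 ± 0.14, adjusted p = 1). IDE196 gave -0.24 ± 0.18 at 4 h and -0.12 ± 0.18 at 24 h, neither called (adjusted p = 0.409 and 0.585).

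BAMBI (ENSG00000095739.11, chr10:28677342-28682939, plus strand) encodes a membrane protein that resembles a type I receptor without its kinase and acts as a decoy for TGF-beta family signals. It was lower in 92-1 and higher in MEL202 and MP41 after 24 h of FHT-1015. In 92-1 the DMSO samples gave 62.6, 61.8 and 60.4 CPM and the FHT-1015 samples 10.9, 7.61 and 7.62. In MEL202 the values were 105, 88.1 and 107 with DMSO and 179, 202 and 154 with FHT-1015, and in MP41 166, 211 and 155 and 293, 337 and 306. No treated sample overlapped the DMSO samples in any of the lines, all treated samples of 92-1 lying below and all those of MEL202 and MP41 above. The log2 fold changes were -2.82 ± 0.16, 0.84 ± 0.23 and 0.81 ± 0.15.

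At 4 h the lines also differed for BAMBI, in samples other than the 24 h ones on which it was selected. The test is not independent of that choice. Earlier results of these data were known, and the fit included the 24 h samples. The pattern was also not that of 24 h, since MEL202 was at -0.72 at 4 h and 0.84 at 24 h. MP41 gave 151, 144 and 137 CPM with DMSO and 303, 256 and 233 with FHT-1015, so that BAMBI rose by 0.87 ± 0.15 on the log2 scale (adjusted p = 0.0295). The call was lost in 9 of the 12 fits without a single library, namely without any 4 h library, without DMSO replicate 1 at 24 h or without FHT-1015 replicate 2 or 3 at 24 h, with an adjusted p of up to 0.216. In 92-1 the 4 h values were 71.2, 72.6 and 53.8 with DMSO and 66.2, 59.2 and 47.6 with FHT-1015, which overlapped (-0.19 ± 0.14, adjusted p = 0.344). In MEL202 they were 87.2, 57.97 and 102 and 48.6, 41.7 and 59.3, also overlapping, with a log2 fold change of -0.72 ± 0.23 that was not called (adjusted p = 0.253). The FHT-1015 effect on BAMBI at 4 h differed among the 3 lines (adjusted p = 0.00121, edgeR's F-test in the 36 FHT-1015 experiment samples, in which 1.38% of all genes were called). The difference was called in each of the 36 fits without a single library (adjusted p of up to 0.00707) and under the 8 other settings (up to 0.0245).

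IDE196 lowered BAMBI in 92-1. At 24 h the DMSO samples gave 71.7, 58.9 and 70.5 CPM and the IDE196 samples 44.4, 33 and 28.5, without overlap, a log2 fold change of -0.92 ± 0.13 (adjusted p = 1.05e-05). At 4 h the values were 49.03, 53.7 and 46.7 with DMSO and 36.1, 39.4 and 37.97 with IDE196 (-0.40 ± 0.13, adjusted p = 0.0457). This 4 h call was lost without any 4 h library, DMSO replicate 4 or 6 at 24 h or IDE196 replicate 2 at 24 h (9 of 12 fits, adjusted p of up to 0.153), without TMM scaling and with all 48 samples in 1 fit (up to 0.275). The 24 h values of BAMBI in 92-1 stand side by side as -2.82 for FHT-1015 and -0.92 for IDE196, a difference that was not tested.

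**Figure D2:**
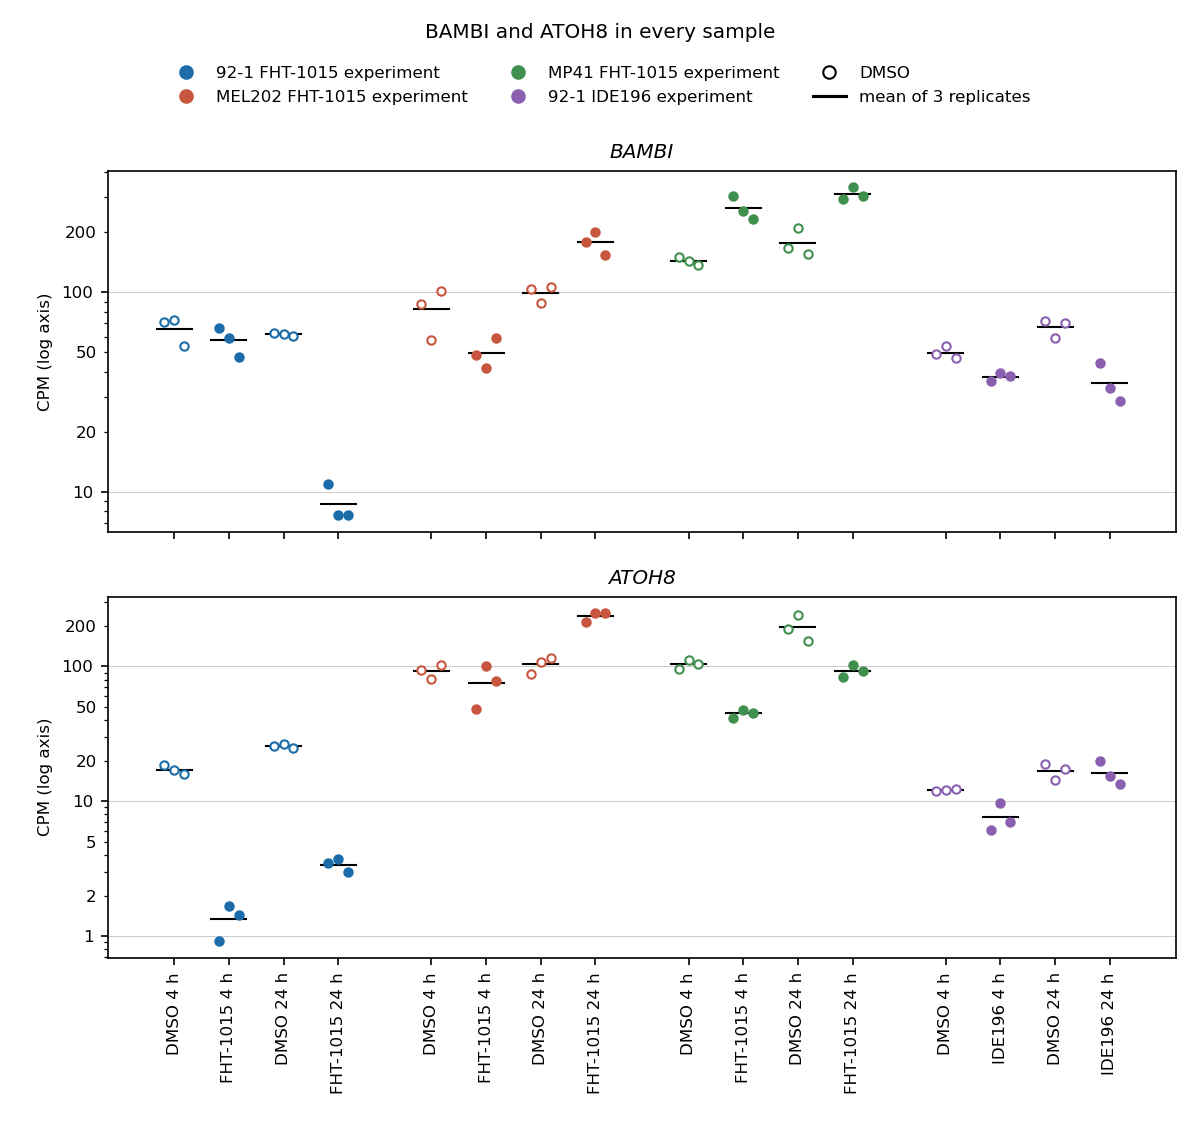
BAMBI (top) and ATOH8 (bottom) in every sample as TMM-normalised CPM on a log axis, open circles for DMSO and filled circles for the drug, with bars for the mean of 3 replicates. After 24 h of FHT-1015, BAMBI is below its DMSO samples in 92-1 and above them in MEL202 and MP41, while ATOH8 is below them in 92-1 and MP41 and above them in MEL202.

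SMAD6 (ENSG00000137834.15, chr15:66702228-66782848, plus strand) encodes an inhibitory SMAD that acts mainly on BMP receptors. It rose in 92-1 with both drugs. The 4 h DMSO samples gave 16.1, 15.6 and 15.1 CPM and the FHT-1015 samples 22.6, 26.8 and 21.3, without overlap (0.60 ± 0.13, adjusted p = 0.00298). In the IDE196 experiment the 4 h values were 21.5, 20.9 and 16.6 and 36.8, 31.99 and 29.7 (0.74 ± 0.11, adjusted p = 0.000156), and the 24 h values 28.4, 28.2 and 28.7 and 56.9, 51.7 and 49.9 (0.89 ± 0.11, adjusted p = 1.95e-06). All IDE196 samples lay above all their DMSO samples at both times. After 24 h of FHT-1015 the log2 fold change of SMAD6 was 1.00 ± 0.13 (92-1), 0.28 ± 0.27 (MEL202) and 0.22 ± 0.14 (MP41). In MEL202 at 4 h a single sample stood apart, with 122, 252 and 123 CPM against 186, 167 and 134 with DMSO. The high value belongs to the library with the fewest detected genes. The log2 fold change there was 0.03 ± 0.27 (adjusted p = 0.993), and 0.03 ± 0.14 in MP41 (adjusted p = 1).

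SMAD7 (ENSG00000101665.9, chr18:48919853-48952052, minus strand) encodes the inhibitory SMAD that acts on TGF-beta and BMP receptors alike. It was not called at 4 h of FHT-1015 in any line, where the change was -0.14 ± 0.09 (92-1), -0.09 ± 0.21 (MEL202) and -0.05 ± 0.16 (MP41) (adjusted p = 0.271, 0.967 and 1). At 24 h it was higher in every FHT-1015 sample of 92-1 (53.7, 52.2 and 52.5 CPM against 30.9, 33.1 and 36.6) and of MEL202 (80.7, 89.8 and 83.1 against 41.7, 54.3 and 52.3). In MP41 the groups overlapped (20.1, 26.1 and 26.9 against 30.8, 31.3 and 23.7). The 24 h log2 fold changes were 0.66 ± 0.09, 0.77 ± 0.21 and -0.23 ± 0.16. IDE196 raised SMAD7 at 4 h, from 51.6, 50.9 and 43.4 CPM to 77.6, 62.9 and 63.6 (0.48 ± 0.10, adjusted p = 0.00346). At 24 h it was 0.30 ± 0.10 (adjusted p = 0.0207), a call lost without DMSO replicate 4 or 5 or IDE196 replicate 1 of the 24 h groups (up to 0.117) and with all 48 samples in 1 fit (0.0539).

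SKIL (ENSG00000136603.14, chr3:170357678-170396835, plus strand) encodes SnoN, a co-repressor that binds receptor SMADs in the nucleus. In 92-1 at 4 h it rose from 28.1, 21.8 and 23.6 CPM with DMSO to 72.8, 61.9 and 56.9 with FHT-1015, without overlap (1.38 ± 0.13, adjusted p = 7.43e-07). At 24 h all treated samples were above all DMSO samples in each line. The log2 fold changes were 1.31 ± 0.13 (92-1), 0.94 ± 0.39 (MEL202) and 1.60 ± 0.37 (MP41). The DMSO samples of SKIL varied widely in 2 groups: 28.6, 133 and 80.01 CPM in MEL202 at 4 h and 21.98, 12.6 and 52.1 in MP41 at 24 h, against 108, 80.7 and 75.6 in the treated samples of MP41. SKIL was not called at 4 h in MEL202 (0.42 ± 0.39, adjusted p = 0.883) or MP41 (0.01 ± 0.36, adjusted p = 1), nor with IDE196 at 4 h (-0.10 ± 0.20, adjusted p = 0.805) or 24 h (0.32 ± 0.20, adjusted p = 0.19).

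**Figure D3:**
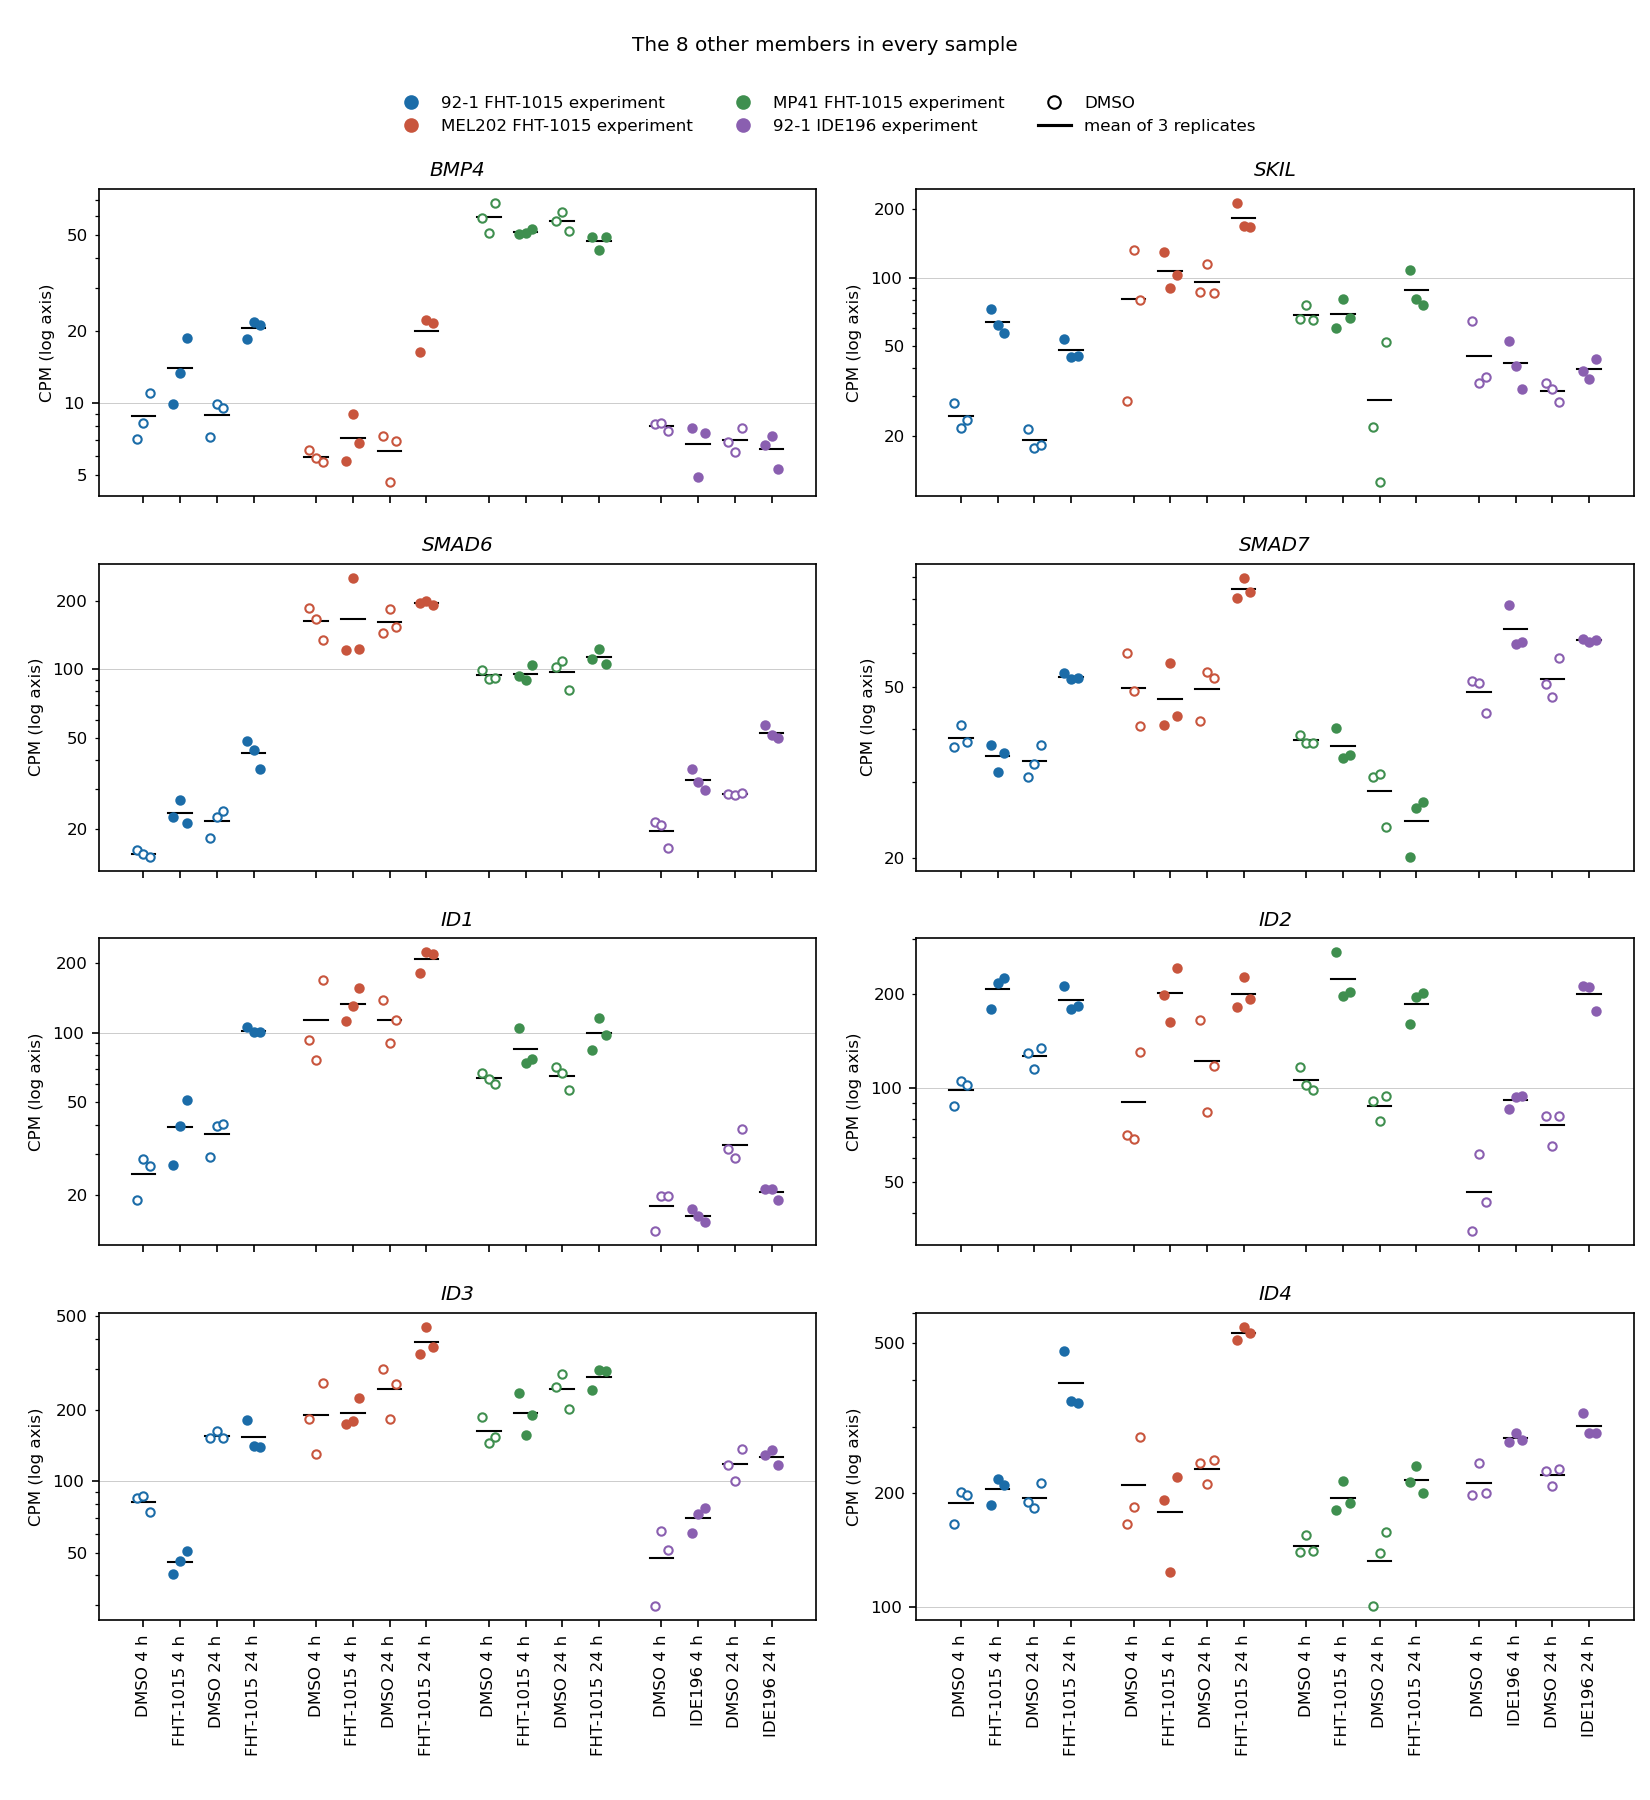
The other 8 genes in every sample as TMM-normalised CPM on log axes, open circles for DMSO and filled circles for the drug, with bars for the mean of 3 replicates. BMP4 after 24 h of FHT-1015 is above its DMSO samples in 92-1 and MEL202 and below them in MP41, and ID2 is above them in all 3 lines at both times.

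The ID genes encode helix-loop-helix proteins without a DNA-binding region, which bind and silence basic helix-loop-helix factors, and they are among the best known direct targets of BMP signalling. ID2 (ENSG00000115738.10, chr2:8678845-8684453, plus strand) was higher than DMSO in every sample of every drug group. With FHT-1015 at 4 h it rose from 88.1, 105 and 103 CPM to 179.9, 218 and 227 in 92-1 (1.08 ± 0.11, adjusted p = 1.86e-06). In MP41 it rose from 117, 102 and 99.01 to 273, 198 and 204 (1.08 ± 0.16, adjusted p = 0.0102), a call lost without any of the 3 DMSO replicates or FHT-1015 replicate 1 at 4 h (up to 0.0958). In MEL202 the values were 70.8, 69.1 and 131 with DMSO and 199.6, 163 and 244 with FHT-1015, a change of similar size (1.16 ± 0.30) that was not called (adjusted p = 0.12). It was called there by DESeq2 and by limma-voom, without the low-count filter and with all 48 samples in 1 fit (down to 0.000147). No difference of the ID2 effect among the lines was detected at 4 h (adjusted p = 1). IDE196 raised ID2 from 34.8, 61.5 and 43.4 to 86, 93.96 and 94.6 at 4 h (0.97 ± 0.15, adjusted p = 0.000248) and from 81.7, 65.2 and 81.6 to 213, 212 and 177 at 24 h (1.40 ± 0.15, adjusted p = 5.29e-07). FHT-1015 at 24 h left ID2 higher, and its log2 fold change was 0.60 ± 0.11 (92-1), 0.71 ± 0.29 (MEL202) and 1.08 ± 0.16 (MP41). The antisense gene ID2-AS1 shares 38 exonic bases with ID2 (1.7% of its exons), whose reads the unstranded libraries cannot assign.

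ID1 (ENSG00000125968.9, chr20:31605283-31606515, plus strand) was higher with FHT-1015 and lower with IDE196 in 92-1 at 24 h. With FHT-1015 at 4 h the DMSO samples gave 18.9, 28.6 and 26.6 CPM and the treated samples 26.8, 39.6 and 51.4, which overlapped (0.66 ± 0.20, adjusted p = 0.0198). The call was lost without DMSO replicate 1 or FHT-1015 replicate 2 or 3 of the 4 h groups (up to 0.107), with a log2 fold change for ID1 of 0.43 without replicate 3. At 24 h the values were 29.2, 39.6 and 40.5 and 106, 100.4 and 100.4, a log2 fold change of 1.49 ± 0.20. IDE196 at 24 h lowered it from 31.4, 28.7 and 38.2 to 21.3, 21.2 and 18.9 (-0.68 ± 0.14, adjusted p = 0.000373), every treated sample lying below every DMSO sample. The 4 h effect of IDE196 was -0.13 ± 0.14 (adjusted p = 0.61). All treated samples were above DMSO at 24 h of FHT-1015 in MEL202 (182, 223 and 219.7 against 138, 89.9 and 114) and MP41 (84.3, 116 and 98.04 against 70.9, 66.9 and 56.7), with log2 fold changes of 0.87 ± 0.28 and 0.62 ± 0.17. At 4 h neither was called (0.24 ± 0.28 in MEL202 and 0.42 ± 0.17 in MP41, adjusted p = 0.926 and 0.687).

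ID3 (ENSG00000117318.9, chr1:23557918-23559794, minus strand) fell in 92-1 at 4 h of FHT-1015, from 85.3, 86.6 and 73.9 CPM to 40.5, 46.01 and 50.7 (-0.84 ± 0.11, adjusted p = 3.84e-05), without overlap. At 24 h the same line gave 152, 164 and 152 with DMSO and 182, 142 and 140.2 with FHT-1015, which overlapped (-0.01 ± 0.11). The DMSO level itself rose between the times, by 0.93 ± 0.11 (adjusted p = 0.00156, or 0.0819 with all 48 samples in 1 fit). IDE196 at 4 h moved ID3 the other way, from 29.7, 61.8 and 51.1 to 60.4, 72.9 and 77.5 (0.56 ± 0.19, adjusted p = 0.048). Those groups overlapped, and the call was lost in 10 of 12 fits without a single library (up to 0.154), all but those without DMSO replicate 5 or IDE196 replicate 1 at 4 h, and in a fit of the compared samples alone or of all 48 samples (up to 0.123). Without DMSO replicate 4 at 4 h, the lowest sample, the ID3 change was 0.31. At 24 h of IDE196 the change was 0.10 ± 0.18 (adjusted p = 0.645). In MEL202 ID3 stood at 298, 183 and 258 with DMSO and 345, 451 and 371 with FHT-1015 at 24 h (0.66 ± 0.26), and in MP41 the 24 h change was 0.17 ± 0.18, with overlap. The 4 h changes of 0.02 ± 0.26 in MEL202 and 0.26 ± 0.18 in MP41 were not called (adjusted p = 0.996 and 1).

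ID4 (ENSG00000172201.12, chr6:19837386-19840684, plus strand) was higher in every 24 h FHT-1015 sample of each line. The values in 92-1 were 189, 183 and 212 CPM with DMSO and 478, 351 and 347 with FHT-1015, in MEL202 239.8, 211 and 244 and 509, 552 and 530.4, and in MP41 100.4, 139 and 158 and 214, 236 and 199.9. The log2 fold changes were 1.01 ± 0.12, 1.19 ± 0.25 and 0.71 ± 0.16. At 4 h ID4 was not called in 92-1 (0.12 ± 0.12, adjusted p = 0.486), MEL202 (-0.24 ± 0.24, adjusted p = 0.904) or MP41 (0.43 ± 0.16, adjusted p = 0.631). IDE196 raised it at both times, from 198, 241 and 201 to 273, 289.5 and 277 at 4 h (0.39 ± 0.09, adjusted p = 0.00562) and from 229, 209 and 231 to 327, 289 and 289 at 24 h (0.44 ± 0.09, adjusted p = 0.000489). The groups did not overlap at either time. With all 48 samples in 1 fit the 4 h call was lost (adjusted p = 0.225).

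ATOH8 (ENSG00000168874.13, chr2:85751344-85788066, plus strand) encodes a basic helix-loop-helix factor known as a BMP-responsive gene in other cell types. With 24 h of FHT-1015 it was lower in 92-1 and MP41 and higher in MEL202. In 92-1 the 24 h DMSO samples gave 25.6, 26.5 and 24.8 CPM and the FHT-1015 samples 3.48, 3.73 and 2.97. In MEL202 the values were 87.6, 108 and 115 and 215, 248 and 248, and in MP41 189, 242 and 154 and 84.2, 102 and 93.2. No treated sample overlapped the DMSO samples in any of the lines. The log2 fold changes were -2.92 ± 0.16, 1.19 ± 0.24 and -1.06 ± 0.17. MP41 thus paired a higher BAMBI with a lower ATOH8, while the genes were lower together in 92-1 and higher together in MEL202.

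The fall of ATOH8 was already present at 4 h in 92-1 and MP41. In 92-1 it went from 18.5, 17.02 and 15.97 CPM to 0.918, 1.68 and 1.45, the largest change of the 10 genes in any 4 h comparison (-3.68 ± 0.17, adjusted p = 1.48e-09). In MP41 it went from 96.1, 112 and 104 to 41.7, 47.9 and 45.1 (-1.21 ± 0.17, adjusted p = 0.00747), a call lost without DMSO replicate 2 or FHT-1015 replicate 1 or 3 at 4 h (up to 0.0785). The samples of MEL202 overlapped, at 94.5, 80.4 and 102 with DMSO and 48.8, 100.4 and 78.1 with FHT-1015 (-0.29 ± 0.24, adjusted p = 0.86). The effect differed among the lines at 4 h (adjusted p = 1.43e-07), in each of the 36 fits without a single library (up to 2.22e-06) and under the 8 other settings (up to 0.00021). In edgeR's main fit none of the other 8 genes besides BAMBI showed a called difference among the lines at 4 h. The nearest was ID3 (adjusted p = 0.0832). More of the 10 were called without the low-count filter and with limma-voom, as given in the last section.

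With IDE196, ATOH8 was called lower at 4 h and was not called at 24 h. The 4 h values were 11.9, 12.2 and 12.3 CPM with DMSO and 6.13, 9.74 and 6.98 with IDE196, without overlap (-0.68 ± 0.17, adjusted p = 0.0119). The call was lost without IDE196 replicate 1 at 4 h (adjusted p = 0.0694). At 24 h they were 18.8, 14.5 and 17.4 and 19.9, 15.3 and 13.4, overlapping (-0.06 ± 0.16, adjusted p = 0.779). The difference between the 2 times was not tested.

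The effects of the 2 drugs in 92-1 at 4 h were compared in 1 fit of the 24 samples of that line. Each effect was taken against its own DMSO, and drug and set of libraries cannot be told apart. The effect of FHT-1015 minus that of IDE196 was called for 6 of the 10 genes, 3 in each direction, where 24.6% of all genes were called. It was -3.01 ± 0.26 for ATOH8 (adjusted p = 2.51e-09), -1.41 ± 0.24 for ID3 (adjusted p = 6.9e-05) and -0.63 ± 0.14 for SMAD7 (adjusted p = 0.00151). On the other side it was 1.48 ± 0.26 for SKIL (adjusted p = 7.59e-05), 0.90 ± 0.29 for BMP4 (adjusted p = 0.0215) and 0.79 ± 0.26 for ID1 (adjusted p = 0.026). The BMP4 call was lost without DMSO replicate 1, FHT-1015 replicate 3 or IDE196 replicate 2 of the 4 h groups (up to 0.0883), that of ID1 without DMSO replicate 1, FHT-1015 replicate 3, DMSO replicate 5 or 6 of the IDE196 set or IDE196 replicate 3 (5 of 24 fits, up to 0.105), and that of SMAD7 with all 48 samples in 1 fit (0.0507). No difference was detected for BAMBI (0.21 ± 0.20), ID2 (0.10 ± 0.20), SMAD6 (-0.15 ± 0.18) or ID4 (-0.27 ± 0.16), which does not show that the drugs act alike on them.

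With DMSO at 4 h the lines had different levels of most of the 10 genes. Levels per gene length (RPKM, depth-normalised reads per kilobase of exon, mean ± SD, n = 3) allow the genes to be compared with each other. In 92-1 the order from the top was ID4 (81.5 ± 8.27), ID3 (46.3 ± 3.91), ID2 (45.5 ± 4.23), BAMBI (28.9 ± 4.56) and ID1 (20.3 ± 4.19). Below these came SMAD7 (7.68 ± 0.476), SKIL (3.20 ± 0.423), BMP4 (2.89 ± 0.665), ATOH8 (2.87 ± 0.213) and SMAD6 (1.85 ± 0.0613). ID3 and ID2, and likewise SKIL, BMP4 and ATOH8, lay within the spread of their neighbours. ATOH8 had a mean of 14.8 ± 1.48 RPKM in MEL202 and 15.6 ± 1.22 in MP41, and SMAD6 of 18.5 ± 3 and 9.99 ± 0.519. BMP4 was at 17.5 ± 2.51 RPKM in MP41 and 1.89 ± 0.103 in MEL202. BAMBI stood at 34.6 ± 8.71 in MEL202 and 56.7 ± 2.61 in MP41.

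Of the 10 genes, 6 differed between MEL202 and 92-1 with DMSO at 4 h (38.1% of all genes), 8 between MP41 and 92-1 (48.8%) and 6 between MP41 and MEL202 (43.2%). SMAD6 was 3.35 ± 0.21 log2 units higher in MEL202 than in 92-1 (adjusted p = 2.7e-14). ATOH8 was 2.40 ± 0.20 higher in MEL202 (adjusted p = 2.75e-11) and 2.47 ± 0.20 higher in MP41 (adjusted p = 7.5e-12) than in 92-1. BMP4 was 2.63 ± 0.21 higher in MP41 than in 92-1 (adjusted p = 4.24e-12). BAMBI was 1.00 ± 0.19 higher in MP41 than in 92-1 (adjusted p = 4.05e-05) and 0.71 ± 0.19 higher than in MEL202 (adjusted p = 0.00233). Each line is an experiment of its own here, so line and batch cannot be told apart.

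The DMSO sets of 92-1 from the FHT-1015 and the IDE196 experiments also differed. At 4 h 7 of the 10 genes were called between them, where 46.1% of all genes were. All 7 melanocyte markers were called too, 2 higher and 5 lower in the IDE196 set. Summed fibroblast markers were 10.3 to 33.5 CPM in that set against 2.61 to 4.18 in the FHT-1015 set. SKIL was 0.98 ± 0.18 log2 units higher in the IDE196 set (adjusted p = 0.000103), and ID2 and ID3 were -0.98 ± 0.15 and -0.68 ± 0.17 relative to the FHT-1015 set (adjusted p = 5.84e-06 and 0.00191). Without replicate 4 of the IDE196 set at 4 h the values of SKIL and ID3 were 0.63 and -0.44. Between 4 h and 24 h of DMSO 1 of the 10 genes was called in 92-1 beside FHT-1015 (0.344% of all genes), 1 in MP41 (2.59%) and 2 in the IDE196 experiment (0.266%). In MEL202 none was (0.0%), where edgeR called no gene at all, 330 genes had an unadjusted p under 0.05, limma-voom called 0 and DESeq2 called 1. The genes were ID3 in 92-1, as given above, and ATOH8 in MP41, which rose by 0.91 ± 0.17 (adjusted p = 0.0206). The ATOH8 call was lost without any 4 h DMSO replicate or replicate 1 at 24 h (up to 0.137). In the IDE196 set ID1 rose by 0.88 ± 0.14 (adjusted p = 0.00988) and ID3 by 1.32 ± 0.19 (adjusted p = 0.00718), and both calls were lost without replicate 6 at 24 h (0.0919 and 0.0551). With all 48 samples in 1 fit the ID1 call was lost as well (0.305).

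Another 84 genes of the pathways, in 8 lists from general knowledge (ligands, receptors, signalling SMADs, secreted and intracellular inhibitors, and target genes), give the setting of the 10. With FHT-1015 at 24 h, 30 of the 65 tested were called higher and 23 lower in 92-1, 15 and 11 of 68 in MEL202, and 23 and 15 of 66 in MP41. IDE196 at 24 h gave 30 higher and 14 lower of 67. At 4 h the counts were 15 higher and 17 lower of 65 in 92-1, 1 and 2 of 68 in MEL202, 1 and 0 of 66 in MP41, and 11 and 10 of 67 with IDE196. The percentages called of all genes, given above for each comparison, are the background of these counts. The median log2 fold change over the tested pathway genes lay between -0.02 and 0.31 in the 8 comparisons, beside -0.024 to 0.065 over all genes. Among the 3 lines at 4 h, 1 of 71 pathway genes differed in its FHT-1015 response, the receptor gene ACVRL1.

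Of the signalling SMADs, 4 of 6 were higher and 1 lower after 24 h of FHT-1015 in 92-1 (beside 29.2% of all genes higher and 31.4% lower), and 5 of 6 were higher in MP41 (17.4% and 18.7%). In MEL202 their log2 fold changes ran from -0.32 ± 0.29 for SMAD5 to 0.63 ± 0.28 for SMAD9 (adjusted p = 0.495 and 0.139), with a median of 0.21. IDE196 at 24 h raised 4 of 6 (28.7% and 29.4%). SMAD9, a receptor SMAD of the BMP branch, rose by 0.92 ± 0.11 in 92-1 and 1.07 ± 0.15 in MP41 with FHT-1015 and by 1.67 ± 0.12 with IDE196 (adjusted p = 2.08e-06, 9.46e-05 and 3.28e-09). BMPR2, the type II receptor of BMPs, rose at 24 h with each treatment, by 0.68 ± 0.12 (92-1), 1.16 ± 0.33 (MEL202), 1.504 ± 0.20 (MP41) and 1.60 ± 0.14 with IDE196. The MEL202 call (adjusted p = 0.0258) was lost without DMSO replicate 1 or 3 or any FHT-1015 replicate at 24 h (up to 0.115). The TGF-beta receptor genes TGFBR2 and TGFBR3 fell with FHT-1015 in 92-1 at 24 h (-0.93 ± 0.14 and -2.02 ± 0.23) and rose with IDE196 (1.62 ± 0.11 and 1.42 ± 0.13). Of the 14 receptor genes tested, 4 rose and 6 fell in 92-1 at 24 h of FHT-1015, beside the same 29.2% and 31.4% of all genes.

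Among the TGF-beta and activin ligands, 4 of 5 rose in 92-1 after 24 h of FHT-1015 (beside 29.2% of all genes), 3 of 5 in MEL202 (8.69%) and 1 of 4 in MP41 (17.4%). TGFB3 rose in all 3 lines, by 1.86 ± 0.19, 2.74 ± 0.35 and 1.18 ± 0.16 (adjusted p = 6.1e-07, 0.000134 and 7.68e-05), and fell with IDE196 (-1.29 ± 0.29, adjusted p = 0.000898). BMP8B, a BMP ligand, fell at 24 h of FHT-1015 in 92-1 (-1.60 ± 0.32) and MP41 (-1.06 ± 0.21) and rose at 24 h of IDE196 (1.62 ± 0.19).

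The secreted antagonist FST (follistatin, which binds activins) had the largest called 4 h change in 92-1 with either drug among pathway genes with a mean of at least 5 CPM, in opposite directions. With DMSO at 4 h its replicates lay between 32.35 and 37.48 CPM, and with FHT-1015 between 6.51 and 9.46 (-2.10 ± 0.13, adjusted p = 1.16e-08). In the IDE196 experiment they lay between 10.22 and 11.62 with DMSO and between 30.17 and 41.01 with IDE196 (1.65 ± 0.14, adjusted p = 4.27e-07). The difference of the 2 effects was -3.74 ± 0.19 (adjusted p = 1.36e-13). The DMSO levels of FST differed between the 2 sets as well, and drug and set cannot be told apart here. FST had at most 1 read per library in MP41 and was not tested there. NBL1, another secreted antagonist of BMPs, fell at 24 h with each treatment, with log2 fold changes of -2.50 ± 0.12 (92-1), -1.15 ± 0.31 (MEL202), -1.75 ± 0.20 (MP41) and -1.46 ± 0.16 with IDE196. The MEL202 call of NBL1 (adjusted p = 0.0201) was lost without DMSO replicate 1 or 3 or any FHT-1015 replicate at 24 h (up to 0.084). SOSTDC1, an antagonist of BMP and WNT signals, rose at 24 h of FHT-1015 in 92-1 (2.84 ± 0.17) and MEL202 (1.36 ± 0.32).

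Intracellular inhibitors included LDLRAD4, a membrane-anchored protein that keeps SMAD2 and SMAD3 from the receptor. It rose in 92-1 at 4 h of FHT-1015 (0.99 ± 0.14, adjusted p = 8.9e-05) and fell at 24 h (-1.91 ± 0.17, adjusted p = 1.24e-07). It also fell at 24 h in MP41 (-1.32 ± 0.20, adjusted p = 0.000218) and rose in MEL202 (0.95 ± 0.25, adjusted p = 0.017). The MEL202 call was lost without DMSO replicate 1 or 3 or any FHT-1015 replicate at 24 h (up to 0.0847). The line pattern of LDLRAD4 at 24 h was that of ATOH8, lower in 92-1 and MP41 and higher in MEL202, and the difference between lines was not tested. TGIF2, a nuclear co-repressor of SMADs, rose at 24 h of FHT-1015 in 92-1 (0.69 ± 0.09) and fell with IDE196 at 4 h (-0.94 ± 0.12) and 24 h (-0.99 ± 0.12).

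HEY1, a BMP and NOTCH target, rose with FHT-1015 in every line at both times. Its replicates lay between 6.57 and 7.26 CPM with DMSO and between 9.30 and 10.14 with FHT-1015 in 92-1 at 4 h, between 16.03 and 18.77 and between 28.11 and 38.84 in MEL202, and between 30.11 and 31.03 and between 57.95 and 71.49 in MP41. The log2 fold changes at 4 h were 0.50 ± 0.12, 0.96 ± 0.19 and 1.08 ± 0.15 (adjusted p = 0.00609, 0.0394 and 0.00747), and at 24 h 1.41 ± 0.12, 1.94 ± 0.20 and 1.82 ± 0.15. The 4 h call in MEL202 was lost in all 12 fits without a single library (up to 0.12), and that in MP41 without any DMSO replicate or FHT-1015 replicate 1 or 3 at 4 h (up to 0.0697). IDE196 raised HEY1 at 24 h (1.20 ± 0.13, adjusted p = 6.04e-07).

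The TGF-beta target genes moved in both directions at 24 h of FHT-1015, with 5 higher and 6 lower of 12 in 92-1, 3 and 6 of 15 in MEL202 and 6 and 5 of 14 in MP41, and with 7 higher and 3 lower of 15 for IDE196. Of all genes, 29.2% and 31.4%, 8.69% and 10.1%, 17.4% and 18.7%, and 28.7% and 29.4% were called higher and lower in these 4 comparisons. CCN2 encodes a matricellular protein and is also driven by YAP. IDE196 raised it by 1.44 ± 0.18 at 4 h and 2.53 ± 0.19 at 24 h (adjusted p = 2.78e-05 and 6.63e-09). FHT-1015 in 92-1 lowered it at 4 h (-1.99 ± 0.40, adjusted p = 0.00145), and the effect minus that of IDE196 at 4 h was -3.42 ± 0.43 for CCN2 (adjusted p = 8.06e-07). LTBP2, which encodes a matrix protein of the latent TGF-beta binding family, rose at 24 h with each treatment, by 3.00 ± 0.15 (92-1), 2.06 ± 0.36 (MEL202), 1.02 ± 0.23 (MP41) and 1.92 ± 0.15 with IDE196. COL4A1, a basement membrane collagen gene, fell at 24 h of FHT-1015 in each line, most in MP41 (-2.01 ± 0.19, adjusted p = 4.52e-06). In MEL202 the COL4A1 value was -0.88 ± 0.29 (adjusted p = 0.0463), a call lost without DMSO replicate 2 or 3 at 24 h, any FHT-1015 replicate at 24 h or FHT-1015 replicate 1 or 3 at 4 h (up to 0.176).

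**Figure D4:**
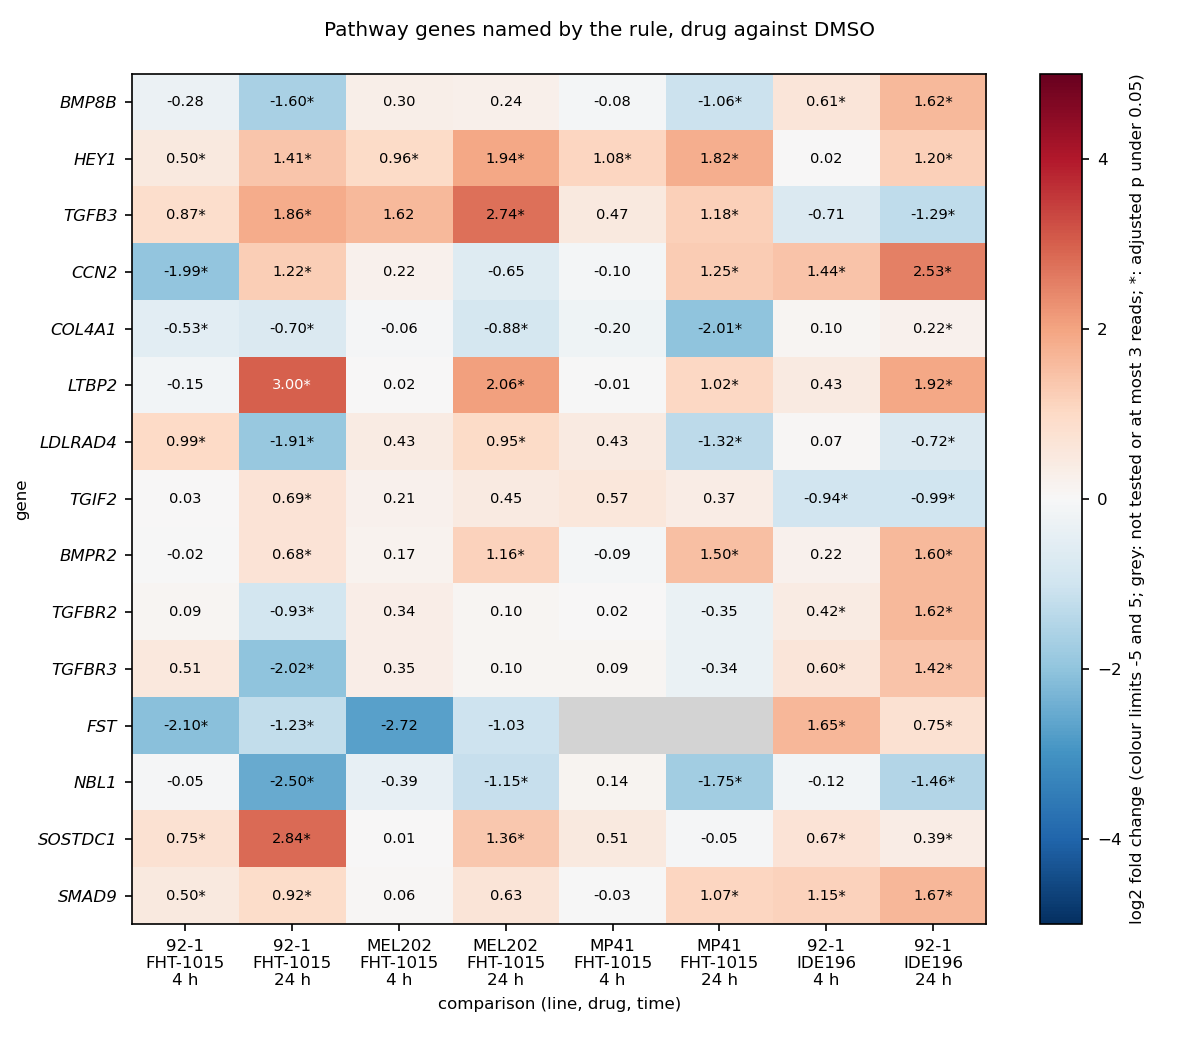
Log2 fold change against DMSO of 15 pathway genes named by the rule, one row per gene and one column per comparison, with called values starred and cells in grey not tested or resting on at most 3 reads per library in an arm. HEY1 is called higher in every FHT-1015 column, NBL1 is called lower in all 4 columns at 24 h, and FST has opposite colours for FHT-1015 and IDE196 in 92-1.

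The genes whose pattern was most like that of BAMBI and ATOH8 were sought over the 48 samples, on log2(CPM + 1) centred on the mean of each experiment, among 10493 protein-coding genes with a mean of at least 5 CPM. For ATOH8 they were PIK3CD (Pearson's r 0.890), RAB6B (0.867), DTX3L (0.837), ADGRE5 (0.820) and PLEKHF1 (0.811). For BAMBI they were NAGK (0.756), ATP2A3 (0.734), ITGA9 (0.734), ZFP36L2 (0.726) and PLEK2 (0.707). Without centring, which leaves the differences in level between the experiments in place, every value but that of NAGK was lower, and 3 turned negative. The values for ATOH8 were then -0.06 for PIK3CD, 0.288 for RAB6B, 0.510 for DTX3L, 0.750 for ADGRE5 and -0.317 for PLEKHF1. Those for BAMBI were 0.793 for NAGK, -0.187 for ATP2A3, 0.167 for ITGA9, 0.671 for ZFP36L2 and 0.276 for PLEK2. By that measure NAGK ranked 8 for BAMBI, and all the others named here ranked 280 or lower. BAMBI and ATOH8 correlated with each other, on the centred values, at 0.374. The points share their DMSO samples within an experiment, and the values are a description. Among the other members the highest value with ATOH8 was that of ID3 (0.514) and the lowest that of SKIL (-0.525).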

How the data were processed

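The authors deposited raw read counts per gene for each of the 48 libraries, unnormalised whole numbers in STAR's gene count format per the file headers, for 58870 genes and 92 spike-ins with 0 reads. The submitters' processing notes name hg38 and limma. The aligner version, the annotation and the doses are not given in the sources used here. The libraries were poly-T selected per the labels' protocols, and the first strand held 49.73% to 50.11% of stranded reads, so the unstranded column was used. Symbols and positions came from GENCODE release 29 by identifier (58552 of 58870 matched), and 9.3% to 11.8% of reads were ambiguous between genes. The lowest chi-square per degree of freedom between replicates was 4.18, so no library was a copy of another of its group.

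Each experiment of 12 samples was fitted with edgeR 4.0.16 in R 4.3.3 (TMM scaling, filterByExpr, quasi-likelihood F-tests on 4 group means, Benjamini-Hochberg adjustment over 15437 to 15913 genes, called under 0.05). Lines and drugs were compared in fits of 36 samples (18395 genes) and 24 samples (16917 genes). Standard errors come from the log2 fold change and the F statistic (|log2 fold change| over the root of F). Tests were tried on simulated counts first. CPM values are TMM-normalised within an experiment, and RPKM over the 48 samples uses exonic length. No replicate block was used: of 18 pairs of same-numbered libraries, 7 correlated above 0.1 (-0.32 to 0.51). The same number was nevertheless the best match in 11 of the 18, including every pair of MP41, and a block was tried as an alternative.

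The 10 genes and the pathway lists were chosen with earlier results of these data known. The rule named the 10 in every comparison and, for each pathway list and experiment at 24 h, the called gene of at least 5 CPM with the largest change, and the largest of all lists at 4 h; 1 gene so named is not reported here. Alternatives were DESeq2 1.42.0, limma 3.58.1 (voom with quality weights), RLE scaling, library size alone, no filter, the sum of both stranded columns, only the compared samples, all 48 samples, a replicate block and each library left out. Intervals on reads would cover counting error only, and replicates are labelled biological.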

Additional observations from a re-analysis of the deposited data

Results flagged for a closer look

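The FHT-1015 effect at 4 h differed among the 3 lines by edgeR's F-test for BAMBI (adjusted p = 0.00121) and ATOH8 (adjusted p = 1.43e-07), with 36 samples in the fit. The fit included the 24 h samples on which both genes were selected. BAMBI was higher in 3 of 3 treated samples of MP41, where its log2 fold change was 0.87, and the groups overlapped in 92-1 (-0.19) and in MEL202 (-0.72, not called). ATOH8 was lower in 3 of 3 treated samples of 92-1 and MP41, and its groups overlapped in MEL202.

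Among the 10 genes and the pathway genes named by the rule, ATOH8, BAMBI, BMP4 and LDLRAD4 had all treated samples on 1 side of DMSO in a line after 24 h of FHT-1015 and on the opposite side in another, and these differences were not tested. Of all genes, 60.6% were called at that time in 92-1, 18.8% in MEL202 and 36.1% in MP41, which is a different measure. The share of all genes with such opposite separation was not computed, so nothing is read from how many genes are listed. The log2 fold changes in 92-1, MEL202 and MP41 were -2.923, 1.193 and -1.063 for ATOH8, -2.821, 0.839 and 0.814 for BAMBI, 1.211, 1.657 and -0.282 (not called) for BMP4, and -1.913, 0.946 and -1.325 for LDLRAD4. Chosen for such a pattern, BAMBI and ATOH8 give it no further support here.

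Among the same genes all treated samples changed side between 4 h and 24 h of FHT-1015 for CCN2 in 92-1 (-1.986 and 1.215) and for LDLRAD4 in 92-1 (0.99 and -1.913) and MP41 (0.433, not called, and -1.325). These differences between times were not tested. The share of all genes that changed side in this way was not computed either. The 24 h call of CCN2 in 92-1 was lost without DMSO replicate 2 at 24 h (adjusted p = 0.0557).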

How the results depend on the processing

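Of 4986 values recomputed under the alternatives, 4755 were labelled as held, 188 lost a call, 21 gained one, 19 changed sign and 3 moved otherwise. Held means the same direction and side of the threshold, except for the chosen genes at 24 h of FHT-1015. Their log2 fold changes were labelled by whether they moved beyond the replicate spread, not by their calls. Changes of sign of their uncalled values were not counted. The fit with a replicate block, possible for the FHT-1015 experiments, gave 110 of these values, of which 107 held, 2 lost a call and 1 changed sign. The IDE196 arms and their DMSO sets share no replicate numbers. The cause of the shifts below was not tested, except that a left-out library leaves fewer samples.

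Counts of the 10 genes called moved as follows. MEL202 at 4 h went from 0 to 1 without the low-count filter, with voom and with DESeq2, to 2 with all 48 samples, and was 0 to 1 with a library left out. Of all genes, 108 of 15913 were called there, and 207 of 33177 without the filter. Voom called 115 and DESeq2 375 of 15913, and the fit of all 48 samples 842 of 18871. MEL202 at 24 h went from 6 to 10 with voom (3 to 7 with a library left out), and IDE196 at 4 h from 7 to 4 with all 48 samples (5 to 6). DMSO over time gave, in the FHT-1015 set of 92-1, 1, then 3 without the filter, 4 with voom, 2 with DESeq2, 2 with only the compared samples and 0 with all 48 (1 to 2). In MP41 it gave 1, then 3, 6, 3, 0 and 3 in that order (0 to 4), and in the IDE196 set 2, then 6, 4, 4 and, with all 48, 1 (0 to 3). Of all genes, MP41 had 403 of 15543 called, 2505 of 33880 without the filter and 8304 of 15543 with voom. It had 1792 of 15543 with DESeq2, 0 of 14575 with only the compared samples and 2895 of 18871 with all 48. The FHT-1015 set of 92-1 had 54 of 15685, then 243 of 37458, 368 and 150 of 15685, 40 of 14493 and 14 of 18871. The IDE196 set had 41 of 15437, then 498 of 33111, 78 and 279 of 15437 and, with all 48, 5 of 18871. The difference among lines at 4 h went from 2 to 4 without the filter and 6 with voom (2 to 3), and that between the DMSO sets of 92-1 from 7 to 4 with all 48 samples (5 to 8). With a library left out the other counts were 5 to 7 (92-1 at 4 h), 9 (92-1 at 24 h), 0 to 3 (MP41 at 4 h), 5 to 8 (MP41 at 24 h), 5 to 6 (IDE196 at 24 h), 5 to 7, 7 to 8 and 4 to 7 (DMSO between lines) and 4 to 6 (difference of the drugs).

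Counts of the other pathway genes at 4 h in MEL202 were 3, then 5 with DESeq2, 1 with a replicate block, 0 with only the compared samples and 9 with all 48 (1 to 2 with a library left out). In MP41 they were 1, then 2 without the filter, 12 with voom, 3 with DESeq2, 8 with only the compared samples and 3 with all 48 (0 to 2). MEL202 at 24 h went from 26 to 48 with voom (14 to 33). The left-out ranges elsewhere were 28 to 33 and 47 to 54 in 92-1, 30 to 43 in MP41 at 24 h, and 18 to 22 and 39 to 46 with IDE196.

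The changes of sign counted in these alternatives were confined to values that were not called. Uncalled values of the chosen genes at 24 h of FHT-1015, such as ID3 in 92-1 (-0.01), were not checked for sign. SMAD6 in MEL202 at 4 h was -0.354 with voom, -0.025 with the replicate block and -0.405 to 0.215 with a library left out, and SKIL with IDE196 at 4 h was 0.041 with voom and -0.302 to 0.243. The left-out ranges of the others were -0.239 to 0.054 for ATOH8 and -0.009 to 0.217 for ID3 with IDE196 at 24 h, -0.2 to 0.301 for ID3, -0.393 to 0.032 for ID4 and -0.248 to 0.068 for SMAD7 in MEL202 at 4 h, and -0.117 to 0.11 for SKIL and -0.027 to 0.071 for SMAD6 in MP41 at 4 h.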
